A study of Mus musculus with 9 samples.

Results

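Collagens and the enzymes that modify, process and cross-link them were followed in MCEC, an endothelial cell line from mouse heart. The members were all protein-coding genes named Col, a type number, a and a chain number, together with the prolyl 4-hydroxylase subunits P4ha1 to P4ha3, the lysyl hydroxylases Plod1 to Plod3, Lox and Loxl1 to Loxl4, Bmp1, Pcolce and Serpinh1. This rule gave 58 genes (44 collagen chains and 14 modifying or processing genes) of the 55487 genes counted. The rule itself uses names and no measured value, but it was chosen with earlier results of these data known. Shares of members set beside those of all genes are therefore descriptive. RNA had been sequenced from 3 groups of 3 libraries each: MCEC with no stated change to Zbtb46 (WT), MCEC with Zbtb46 knockdown (KD) and MCEC with enforced Zbtb46 overexpression (OE). Zbtb46 encodes a zinc finger transcription factor. How the knockdown and the overexpression were made is not given in the sources used here, and neither is whether each line is a clone. No library of cells carrying a control construct was used here, so a change made by the manipulation itself and a change made through Zbtb46 cannot be told apart. The labels do not say whether replicates were separate cultures, so the p-values measure the spread between these libraries, which may be technical.

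Collagens are built from 3 chains wound around each other over long runs of glycine-rich repeats. Fibrillar types such as I, III and V form the fibres of connective tissue, type IV forms the network of basement membranes under endothelium and epithelium, and type VI forms beaded filaments beside them. In the endoplasmic reticulum prolyl hydroxylases stabilise the helix, lysyl hydroxylases prepare sites for sugars and cross-links, and Serpinh1 (HSP47) binds the folded procollagen. After secretion Bmp1 removes the end of the procollagen with Pcolce as its enhancer, and lysyl oxidases start the cross-links between molecules.

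The libraries held 39491828 to 55745849 counts. Levels are CPM, counts divided by a scaled library total, given as mean ± SD over 3 libraries, and levels of different genes were compared only per kb of exon. Zbtb46 was at 13.65 CPM ± 0.623 in WT, 11.24 ± 0.537 in KD and 191.4 ± 2.67 in OE, so transcript level in KD was lower by 17.9% and in OE was 14.0-fold higher (edgeR adjusted p = 0.00144 and 3.22e-21). Of 14 endothelial markers 10 were under 1 CPM in WT: Erg had 0 counts in all 9 libraries, and Pecam1, Cdh5, Cldn5, Vwf, Tie1, Emcn and Robo4 had 10 or fewer in each. Eng, the receptor endoglin, was at 125 CPM in WT and carried most of the endothelial sum of 130.1 to 143.1 CPM, which was 113.3 to 118.7 in KD and 87.13 to 94.46 in OE. Most defining endothelial markers were thus at or near 0 in these libraries, against the label. The summed level of 10 fibroblast and mural markers was 49.14 to 59.56 CPM in WT, 55.01 to 57.18 in KD and 35.47 to 38.17 in OE, mostly Thy1 and Pdgfra, while Tcf21 and Rgs5 were near 0. Cardiomyocyte and leukocyte markers summed to under 6 CPM in every library, and the epithelial list (437 to 563.1 CPM) was nearly all Krt19. The endothelial and the fibroblast and mural sums were lower in every OE library than in every WT library, as most tested collagens were, and their part in the results was not tested.

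The promoters of the members with the clearest changes are shown first, since they include genes that fell and genes that rose. The stretches are RefSeq sequence on GRCm38.p6, 5′ to 3′ on the gene's strand, and end where annotated exon begins. Capitals mark the TATA box letters TATAAA, the CAAT box letters CCAAT, and the GC box letters GGGCGG, each on either strand, and a capital run at an end belongs to a match that goes on past the stretch. Col3a1 (chr1:45311288-45311537), Col5a3 (chr9:20815068-20815317), Col8a2 (chr4:126286544-126286792) and P4ha3 (chr7:100285270-100285519) fell by at least 2-fold in OE. Col18a1 (chr10:77166549-77166780) and Loxl4 (chr19:42612814-42613056) fell in KD, Col18a1 also rose in OE, and Col1a2 (chr6:4505370-4505492) was the partner, with few counts, of the most abundant chain. The Col1a2 stretch belongs to a RefSeq start at chr6:4505618 and lies inside the annotated gene, which begins at chr6:4504814. Which Col1a2 start these cells use was not tested.
Col3a1: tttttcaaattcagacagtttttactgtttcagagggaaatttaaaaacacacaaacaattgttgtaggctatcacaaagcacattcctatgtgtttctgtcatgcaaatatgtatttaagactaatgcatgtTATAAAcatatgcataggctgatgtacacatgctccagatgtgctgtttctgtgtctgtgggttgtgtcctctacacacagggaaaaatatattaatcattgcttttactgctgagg
Col5a3: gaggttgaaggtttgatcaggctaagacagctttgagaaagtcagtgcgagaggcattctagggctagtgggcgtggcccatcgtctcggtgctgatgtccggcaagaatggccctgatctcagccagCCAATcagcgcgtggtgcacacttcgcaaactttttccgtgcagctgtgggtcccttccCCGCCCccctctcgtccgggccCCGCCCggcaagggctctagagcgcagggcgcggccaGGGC
Col8a2: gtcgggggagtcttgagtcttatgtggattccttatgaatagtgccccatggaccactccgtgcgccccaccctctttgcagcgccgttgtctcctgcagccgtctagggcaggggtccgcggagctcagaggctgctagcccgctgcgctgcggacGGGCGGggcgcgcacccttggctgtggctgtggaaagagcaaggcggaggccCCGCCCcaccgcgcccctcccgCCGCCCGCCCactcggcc
P4ha3: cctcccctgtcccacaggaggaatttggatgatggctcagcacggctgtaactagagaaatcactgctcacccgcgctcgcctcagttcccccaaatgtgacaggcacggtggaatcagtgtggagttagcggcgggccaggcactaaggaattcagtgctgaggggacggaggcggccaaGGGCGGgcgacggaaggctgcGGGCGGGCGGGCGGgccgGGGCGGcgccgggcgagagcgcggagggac
Col18a1: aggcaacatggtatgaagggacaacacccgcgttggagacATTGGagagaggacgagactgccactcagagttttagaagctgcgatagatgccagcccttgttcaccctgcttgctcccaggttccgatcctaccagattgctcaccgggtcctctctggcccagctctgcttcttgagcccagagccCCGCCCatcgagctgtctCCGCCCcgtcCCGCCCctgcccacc
Loxl4: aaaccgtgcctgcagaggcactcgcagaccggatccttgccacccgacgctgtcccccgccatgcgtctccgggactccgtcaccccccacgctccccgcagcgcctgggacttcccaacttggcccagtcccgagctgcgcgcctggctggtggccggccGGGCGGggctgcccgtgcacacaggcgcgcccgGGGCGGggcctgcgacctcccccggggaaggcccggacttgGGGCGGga
Col1a2: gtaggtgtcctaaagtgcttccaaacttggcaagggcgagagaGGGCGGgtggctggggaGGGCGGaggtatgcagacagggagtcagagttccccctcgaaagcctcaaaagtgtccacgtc

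Entries on chromosome 18 were left out for the members. Of the 58 members, 43 had another entry in the RefSeq promoter table, with 46 windows of 300 bases (250 before the start and 50 after it). The Col3a1 window held 1 TATAAA, no GC box and 0 CpG, whereas those of Col8a2, P4ha3 and Loxl4 held 32, 30 and 32 CpG and 4, 5 and 3 copies of the GC box. For Col18a1 the window shown held 3 GC boxes and 16 CpG. Another Col18a1 window, with its start at chr10:77113705, held 0 and 6, and which start these cells use was not tested. Across all 46 member windows the GC box was found in 30 (65.2%), the TATA box in 7 (15.2%) and the CAAT box in 14 (30.4%). Among all 32851 promoters of that table, chromosome 18 included, with windows of the same length, the shares were 35.7%, 13.6% and 37.4%. The median number of CpG was 13.5 in member windows and 7 in all. A match describes letters only. Col5a2, Col22a1, Col26a1, Col9a3, Col12a1, Col14a1, Col2a1, Col4a3, Col1a1, Loxl1, Loxl2, Loxl3, Plod2 and Bmp1 had no entry among those used. Lox lies on chromosome 18, so whether it has an entry was not examined.

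In unmodified MCEC the collagen RNA was dominated by a handful of chains. Col1a1, the main chain of type I collagen, had the highest level per kb of all members at 801 CPM per kb ± 44.1, followed by the chaperone Serpinh1 at 619 ± 58.3, Col5a2 at 380 ± 13.8, Col3a1 at 320 ± 15.3 and Col4a1 at 285 ± 11.2. Each of these lay apart from the next in order by more than their SDs together, per kb of all exons. The ratio of Col3a1 to Col5a2 in WT was 0.843 ± 0.0215 with that length. With the longest transcript as the length it was 1.03 ± 0.0262, so the order of these 2 depends on the gene model. Other places and overlaps in the order rest on the same choice of length. Col6a1 (211 ± 14.9) and Col4a2 (192 ± 10.2) were close enough for their SDs to overlap. Lox followed at 133 ± 11.8, then Col6a2, Pcolce and P4ha1 at 77.5 ± 5.02, 74.2 ± 4.49 and 55.3 ± 1.09, where Col6a2 and Pcolce did not differ beyond their spread. By mean level in WT, 18 members were at or above 100 CPM, 10 between 10 and 100, 5 between 1 and 10, and 25 under 1 CPM.

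**Figure D1:**
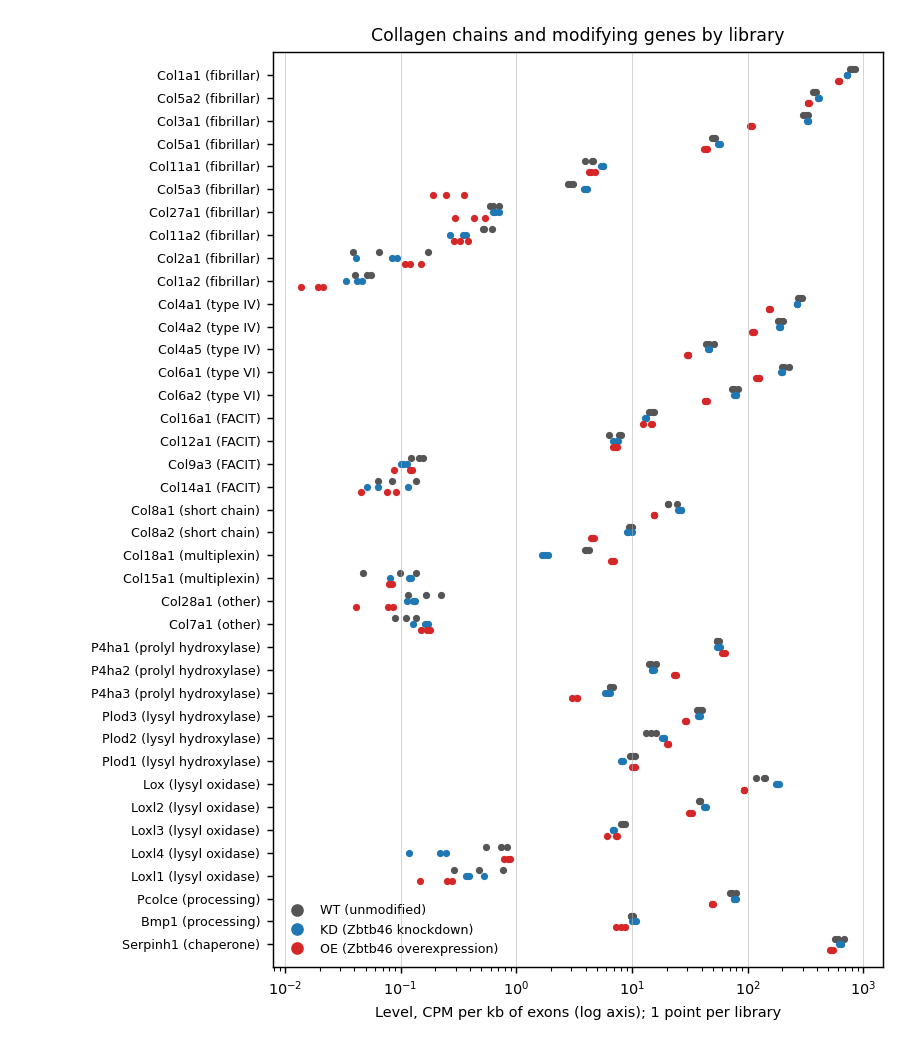
Level of 39 members in each of the 9 libraries, in CPM per kb of exon on a log axis, grouped by role and ordered within a role by the WT level. Col1a1 lies at the top near 801 CPM per kb in WT while its partner Col1a2 is near the bottom of the fibrillar group, and the OE points of Col3a1, Col5a3, the type IV and the type VI chains lie to the left of WT and KD.

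Of the 44 chains, 6 made up most of the collagen RNA. Col1a1, Col5a2, Col3a1, Col4a1, Col6a1 and Col4a2 together held between 89.2% and 90.3% of the summed chain level per kb in every library. Within that sum, Col1a1 held 32.9% ± 0.427, 30.7% ± 0.114 and 38.1% ± 0.251 of the level in WT, KD and OE. Col3a1 held 13.2% ± 0.0426, 13.9% ± 0.0389 and 6.63% ± 0.0636. Fibrillar chains as a class held 64.2% in WT, 64.8% in KD and 68.4% in OE, type IV chains 21.5%, 21.2% and 18.3%, and type VI chains 11.9%, 11.6% and 10.3%. Shares sum to the whole, so a lower share of one chain raises the others.

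The summed level of the members was lower in OE and alike in WT and KD. It was 20743, 21777 and 22721 CPM in the WT libraries, 21778, 21645 and 21933 in KD, and 14896, 15028 and 15170 in OE. All OE libraries lay below all others, and the KD libraries lay within the WT range. Chains summed to 18314 CPM ± 827 in WT, 18049 ± 165 in KD and 12104 ± 81 in OE, and the modifying and processing genes to 3433 ± 189, 3736 ± 62 and 2927 ± 57. For the modifying and processing genes alone, every KD library (3665, 3783 and 3760) lay above every WT library (3312, 3336 and 3650). As a share of all raw counts the members held 2.23% ± 0.203, 2.17% ± 0.0466 and 1.47% ± 0.035. Ribosomal RNA took 7.44% to 17.3% of the counts in WT, 9.55% to 12.0% in KD and 14.4% to 18.2% in OE, and with it left out the shares were 2.51%, 2.45% and 1.76%. In bulk RNA, fewer cells that make collagen and less collagen RNA per cell cannot be told apart.

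Of the 58 members, 46 had enough counts to be tested. The other 12, Col4a3, Col6a5, Col9a1, Col9a2, Col10a1, Col13a1, Col17a1, Col19a1, Col22a1, Col23a1, Col24a1 and Col26a1, had at most 11 counts in any library. Among those tested, 38 had at least 10 counts in every library. Col25a1, Col4a4, Col6a3 and Col6a4 reached that level in each library of only 1 group, so that their passing the filter and their difference are not independent. Col1a2 reached it in 2 groups, and Col20a1, Col4a6 and Col6a6 in 0, so their values also rest on few counts. KD and OE were each compared with the same WT libraries, and the values of both comparisons are given side by side for that reason.

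In cells that overexpress Zbtb46 most of the tested collagen genes were lower. In OE against WT, 32 of the 46 tested members passed an adjusted p of 0.05, 27 lower and 5 higher (69.6%), where 36.4% of all 16955 tested genes passed (19.5% lower and 17% higher). The median change of the tested members was -0.36 on the log2 scale and that of all genes was 0.00. The libraries of OE and WT did not overlap for 33 members, against 45.1% of all genes. Highly expressed genes pass more easily: of the 28 members with a mean of at least 10 CPM, a subset chosen after the values were seen, 24 passed (20 lower and 4 higher), against 50.9% of the 8977 genes at that level (26.5% lower and 24.4% higher). Changes that passed and were at least 2-fold were found for 10 members, 9 lower and 1 higher, against 5.34% of all genes (3.33% lower and 2.02% higher). Several of these 10 had few counts. Of the 38 members with at least 10 counts in every library, 6 were lower and 0 higher by at least 2-fold, and the all-gene shares were not restricted in that way. With that level as the filter, 28 of 38 members passed, 24 lower and 4 higher, against 41.1% of all genes.

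In KD against WT fewer members moved, with no prevailing direction. The test was passed by 15 of 46, with 8 higher and 7 lower (32.6%), against 21.3% of all genes (11% higher and 10.4% lower). Their median change was 0.01 against 0.00 over all genes. Libraries did not overlap for 20 members, against 34.7% of all genes, and 2 members, Col18a1 and Loxl4, were lower by at least 2-fold, where 2.64% of all genes changed that much (2.09% lower and 0.543% higher). Among members with a mean of at least 10 CPM, 13 of 28 passed, 8 higher and 5 lower, against 30.9% of genes (18.4% higher and 12.5% lower). The count was 9 (4 higher and 5 lower) when libraries were scaled by their totals alone, a scaling under which 14.6% of all genes passed.

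The direct comparison of OE with KD, which uses no WT library for its fold changes, called 32 members, 26 lower and 6 higher in OE (69.6%), against 41.5% of all genes (22.1% lower and 19.4% higher). Their median was -0.38 on the log2 scale against 0.01 over all genes. The libraries of 35 members did not overlap, against 55.4% of all genes. At a mean of at least 10 CPM 24 of 28 passed, 20 lower and 4 higher, against 56.1% of genes (31.3% lower and 24.8% higher). A change of at least 2-fold was found for 7 lower and 3 higher members, against 7.49% of all genes (3.77% lower and 3.72% higher). Among the 38 members with at least 10 counts in every library it was found for 3 lower and 2 higher, so the lean at that size rested largely on low counts. With that level as the filter, 27 of 38 members passed, 22 lower and 5 higher, against 46.5% of all genes. The p-values of this comparison do draw on WT, since the spread was estimated over all 9 libraries. With only OE and KD fitted, 32 of 44 tested members passed, 24 lower and 8 higher, against 49.8% of all genes.

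**Figure D2:**
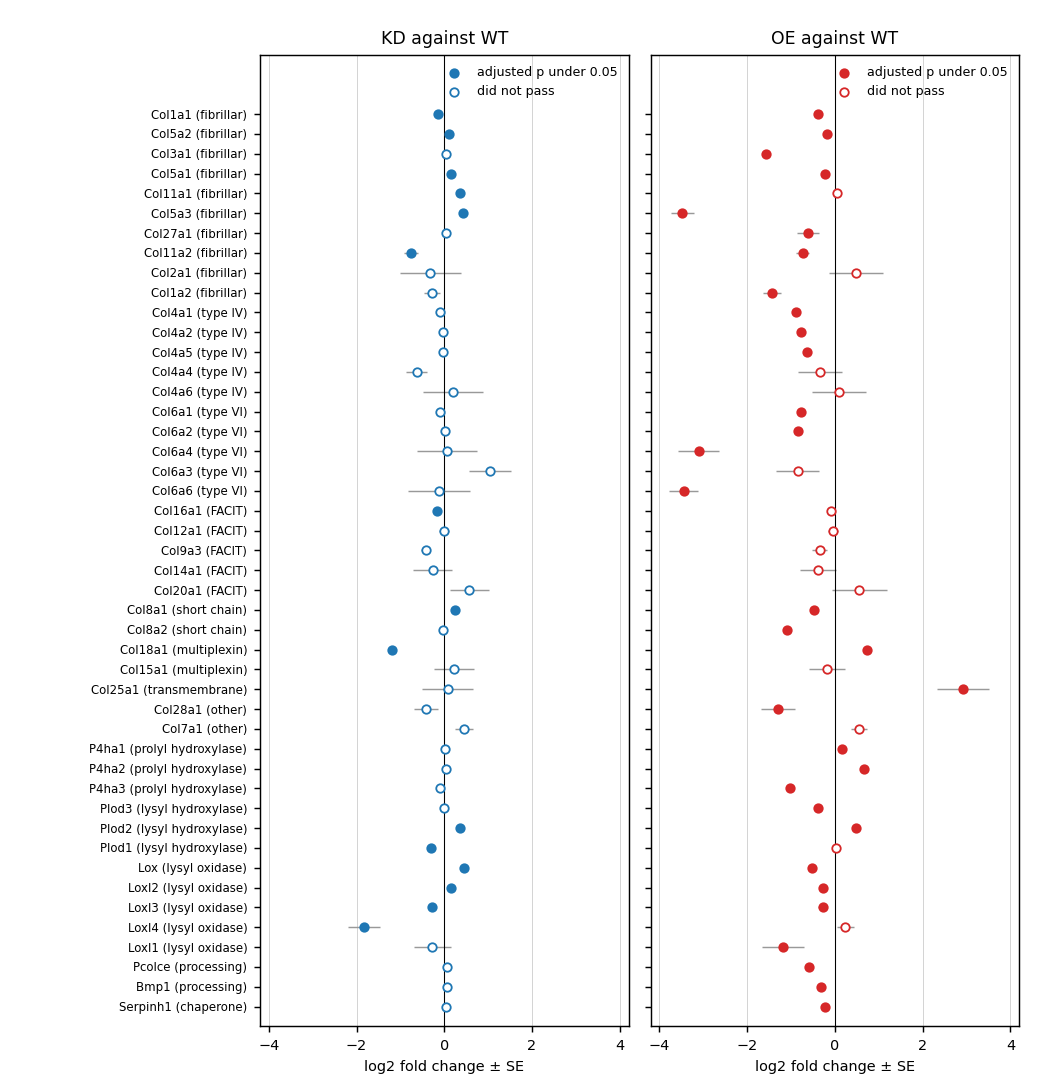
Log2 fold change ± SE of the 46 tested members for KD against WT and OE against WT, which share the WT libraries, with filled points where the adjusted p was under 0.05. In OE 27 filled points lie left of 0 and 5 right of it, and in KD 7 lie left and 8 right.

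Among the fibrillar chains, 8 of 10 tested fell in OE, where 19.5% of all tested genes fell, and Col11a1 and Col2a1 did not pass there. Col3a1 (ENSMUSG00000026043, chr1:45311538-45349706), the chain of type III collagen of vessel walls and skin, was at 2984, 3169 and 3282 CPM in WT, 3256, 3194 and 3264 in KD, and 1036, 1063 and 1053 in OE. The OE libraries were all far below the others and KD overlapped WT. The change was a fall of 2.99-fold in OE (log2 -1.58 ± 0.04 SE, edgeR adjusted p = 3.09e-17) and 0.04 ± 0.04 in KD (edgeR adjusted p = 0.50). Col5a3 (ENSMUSG00000004098, chr9:20770050-20815067), a less common chain of type V collagen, which sits inside type I fibrils, was at 20.3, 21.1 and 19.0 CPM in WT, 26.3, 27.4 and 27.8 in KD, and 1.30, 2.40 and 1.69 in OE. No library of one group lay in the range of another, with KD highest and OE lowest. Col5a3 fell 11.1-fold in OE (log2 -3.48 ± 0.25, edgeR adjusted p = 1.7e-13) and rose by 0.43 ± 0.05 in KD (edgeR adjusted p = 0.00426). The 143 tested genes of its 20 Mb window on chromosome 9 changed by a median of -0.35 in OE, and Col5a3 was at -3.10 once window medians were taken out.

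The most abundant chain moved far less. Col1a1 (ENSMUSG00000001506, chr11:94936224-94953042) was at 4992, 5217 and 5567 CPM in WT, 4795, 4739 and 4786 in KD, and 3988, 4025 and 4082 in OE. WT was highest, then KD, then OE, with no overlap between groups. The difference was a fall of 0.38 ± 0.05 on the log2 scale in OE (edgeR adjusted p = 8.57e-08) and of 0.14 ± 0.05 in KD (edgeR adjusted p = 0.012). The KD call was lost with library totals alone, with window medians taken out, without KD replicate 2 and without KD replicate 3 (adjusted p = 0.0515, 0.136, 0.073 and 0.0528).

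Type I collagen is as a rule made of Col1a1 together with Col1a2, and here the partner was nearly absent. Col1a2 (ENSMUSG00000029661, chr6:4504814-4541544) had 19, 38 and 31 counts in WT, 21, 21 and 28 in KD and 8, 12 and 12 in OE, where Col1a1 had 183663 to 310456 in a library. In CPM, Col1a2 was at 0.611 ± 0.0993 in WT, 0.506 ± 0.0804 in KD and 0.227 ± 0.05 in OE. It was lower in OE (log2 -1.43 ± 0.21, edgeR adjusted p = 0.00848), with all OE libraries below all WT libraries. Per kb of all exons Col1a1 exceeded Col1a2 by 16510 ± 2046 times in WT, 18190 ± 3153 in KD and 34910 ± 8219 in OE. With the longest transcript as the length the ratios were 7864, 8664 and 16630, so their size depends on the gene model. A change of length scales every library alike and cannot alter the order of the groups. The ranges of WT (15200 to 18870) and KD (15800 to 21760) per kb of all exons overlapped, and OE lay above both.

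Col5a2 (ENSMUSG00000026042, chr1:45374321-45503282), the usual partner of Col5a1 in type V collagen, lies 24614 bp from Col3a1 on the opposite strand. It was at 3497, 3746 and 3699 CPM in WT, 3924, 3876 and 3964 in KD, and 3166, 3187 and 3233 in OE. KD was highest and OE lowest with no overlap, but the sizes were small: log2 0.10 ± 0.03 in KD (edgeR adjusted p = 0.0413) and -0.19 ± 0.03 in OE (edgeR adjusted p = 0.00022). The ratio of Col3a1 to its neighbour per kb was therefore 0.843 ± 0.0215 in WT and 0.807 ± 0.00346 in KD but 0.321 ± 0.00404 in OE. Col3a1 and Col5a2 lie in a 20 Mb window with a median change of 0.14 in KD, and with window medians taken out both turned in KD. Col3a1 was then at -0.12 (edgeR adjusted p = 0.0247), and Col5a2 at -0.06, no longer a call (edgeR adjusted p = 0.259).

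Col5a1 moved as Col5a2 did, by 0.15 ± 0.03 in KD and -0.23 ± 0.03 in OE (edgeR adjusted p = 0.00596 and 7.51e-05). It was at 432 CPM ± 12.0 in WT, 480 ± 6.96 in KD and 369 ± 8.82 in OE, and its ratio per kb to Col5a2 in the 3 groups was 0.134 ± 0.00269, 0.138 ± 0.000622 and 0.130 ± 0.00435. The ranges of that ratio overlapped between WT and OE. Col11a1, a chain that can join type V in mixed fibrils, rose by 0.35 ± 0.07 in KD (edgeR adjusted p = 0.000119) and was at 0.05 ± 0.08 in OE. Col11a2 was lower in both, at -0.76 ± 0.16 in KD and -0.74 ± 0.14 in OE (edgeR adjusted p = 0.00368 and 0.00224), from 3.81 CPM ± 0.416 in WT. Col27a1 fell by 0.61 ± 0.26 in OE (edgeR adjusted p = 0.00444), and Col2a1, the cartilage chain, was at 0.857 CPM ± 0.662, 0.672 ± 0.258 and 1.17 ± 0.203 in WT, KD and OE and did not pass in any comparison.

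The abundant chains of the basement membrane fell in OE. Col4a1 (ENSMUSG00000031502, chr8:11198423-11312826) was at 2037, 2135 and 2203 CPM in WT, 1992, 1977 and 2000 in KD, and 1133, 1138 and 1173 in OE. OE lay far below, and KD lay just below the WT range. Col4a1 was lower by 1.85-fold in OE (log2 -0.89 ± 0.04, edgeR adjusted p = 1.42e-13), and its KD value was -0.09 ± 0.03 (edgeR adjusted p = 0.0768). That KD value passed without WT replicate 1, with upper-quartile factors and with limma-voom (adjusted p = 0.0194, 0.0237 and 0.0361). Col4a2, which forms the common type IV trimer with Col4a1, starts within the same 22 bp on the other strand (chr8:11312805-11449287). Col4a2 was at 1268 CPM ± 67.8 in WT, 1246 ± 15.3 in KD and 736 ± 11.8 in OE (log2 -0.78 ± 0.05 in OE, edgeR adjusted p = 3.3e-12). The 2 chains kept nearly the same proportion, with a ratio per kb of 1.49 ± 0.0225 in WT, 1.42 ± 0.0104 in KD and 1.38 ± 0.0321 in OE, where the ranges of KD and OE overlapped and WT was higher.

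Of the other type IV chains, Col4a5 was at 317 CPM ± 23.6, 309 ± 3.23 and 203 ± 2.32 in WT, KD and OE and fell by 0.64 ± 0.06 in OE (edgeR adjusted p = 6.03e-10). Its head-to-head partner Col4a6 and Col4a4 had at most 13 and 21 counts in a library, and Col4a3 was not tested. The type IV RNA of these cells was thus that of Col4a1, Col4a2 and Col4a5, and all of the 3 were lower in OE.

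**Figure D3:**
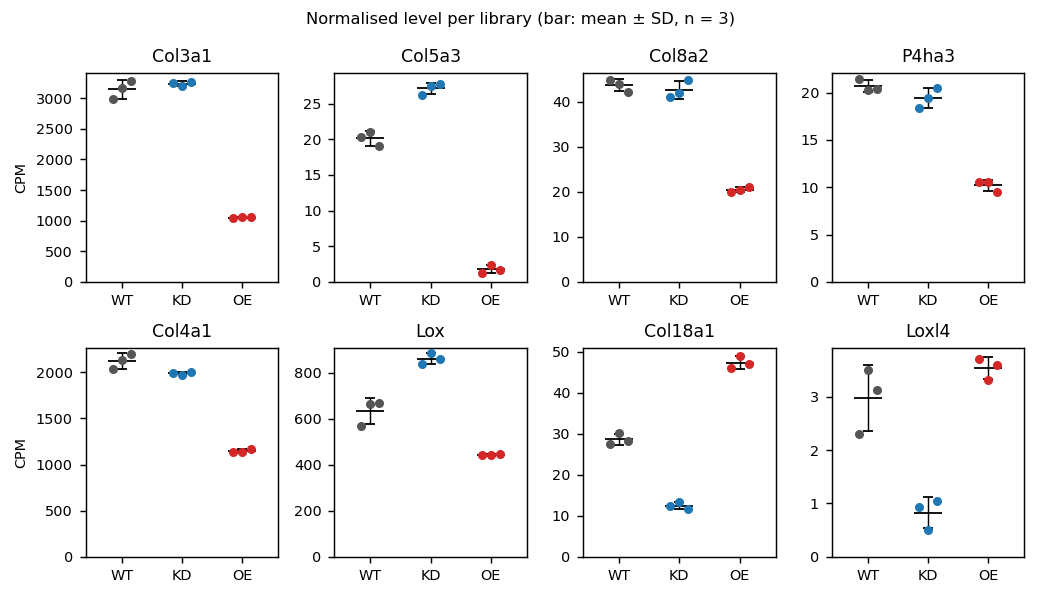
Level in CPM of 8 members in each library (points) with mean ± SD of 3 libraries (bars). The OE libraries of Col3a1, Col5a3, Col8a2, P4ha3, Col4a1 and Lox lie below all others, and in Col18a1 and Loxl4 the KD libraries lie lowest.

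Type VI chains fell with overexpression as well. Col6a1 (ENSMUSG00000001119, chr10:76708792-76726168) was at 873, 904 and 999 CPM in WT, 872, 849 and 869 in KD, and 548, 553 and 521 in OE. All OE libraries were below the others, and KD lay just under the lowest WT library. The change was -0.78 ± 0.06 in OE (edgeR adjusted p = 2.43e-11) and -0.10 ± 0.06 in KD (edgeR adjusted p = 0.127, 0.0318 without WT replicate 1). Col6a2, which lies 85161 bp from Col6a1 and joins it in type VI molecules, was at 645 ± 41.8, 653 ± 14.3 and 363 ± 8.63 and fell by 0.83 ± 0.06 in OE (edgeR adjusted p = 5.79e-12). The ratio of Col6a1 to Col6a2 per kb took the values 2.73 ± 0.0223, 2.52 ± 0.0188 and 2.83 ± 0.0605 in WT, KD and OE, with no overlap between groups.

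The chain that completes the type VI molecule was scarce. Col6a3 (ENSMUSG00000048126, chr1:90765923-90843971) was at 0.237, 0.538 and 0.694 CPM in WT, 1.13, 0.728 and 1.21 in KD, and 0.320, 0.323 and 0.178 in OE. KD lay above both other groups and OE overlapped WT. KD was the only group with at least 10 counts in every library (57, 29 and 59), so the limit of the filter given above applies. Col6a3 was lower in OE than in KD (log2 -1.89 ± 0.33, edgeR adjusted p = 0.000824), whereas KD and OE against WT gave 1.04 ± 0.47 and -0.85 ± 0.48 (edgeR adjusted p = 0.0602 and 0.141). These 2 values passed in some settings: KD with limma-voom or without WT replicate 3 (adjusted p = 0.0467 and 0.0372), and OE without WT replicate 1 (adjusted p = 0.044). Col6a4 and Col6a6, chains that can take the place of Col6a3, passed in OE at very low counts. Col6a6 had 10, 18 and 9 counts in WT and at most 2 in an OE library, which is at least 4.01-fold lower with 3 counts per library as the floor, and Col6a4 had 12 to 25 in WT and 0 to 4 in OE.

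The short-chain collagens of type VIII, which form networks under endothelium, were lower in OE too. Col8a1 (ENSMUSG00000068196, chr16:57624258-57754737) was at 161, 191 and 160 CPM in WT, 196, 207 and 206 in KD, and 121, 122 and 122 in OE. Groups did not overlap, with KD highest and OE lowest. It rose by 0.25 ± 0.09 in KD (edgeR adjusted p = 0.00274, 0.0649 with library totals alone) and fell by 0.49 ± 0.08 in OE (edgeR adjusted p = 1.05e-06). Its partner Col8a2 (ENSMUSG00000056174, chr4:126286793-126314330) was at 44.9, 44.0 and 42.2 CPM in WT, 41.1, 41.9 and 44.9 in KD, and 19.9, 20.4 and 21.0 in OE. KD overlapped WT and OE was below both. Col8a2 fell 2.14-fold in OE (log2 -1.1 ± 0.03, edgeR adjusted p = 6.48e-12), in a 20 Mb window whose 282 tested genes had a median of 0.35, and with window medians taken out it was lower by -1.44. The ratio of Col8a1 to Col8a2 per kb was 2.24 ± 0.222, 2.73 ± 0.0962 and 3.41 ± 0.0791 in WT, KD and OE.

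**Figure D4:**
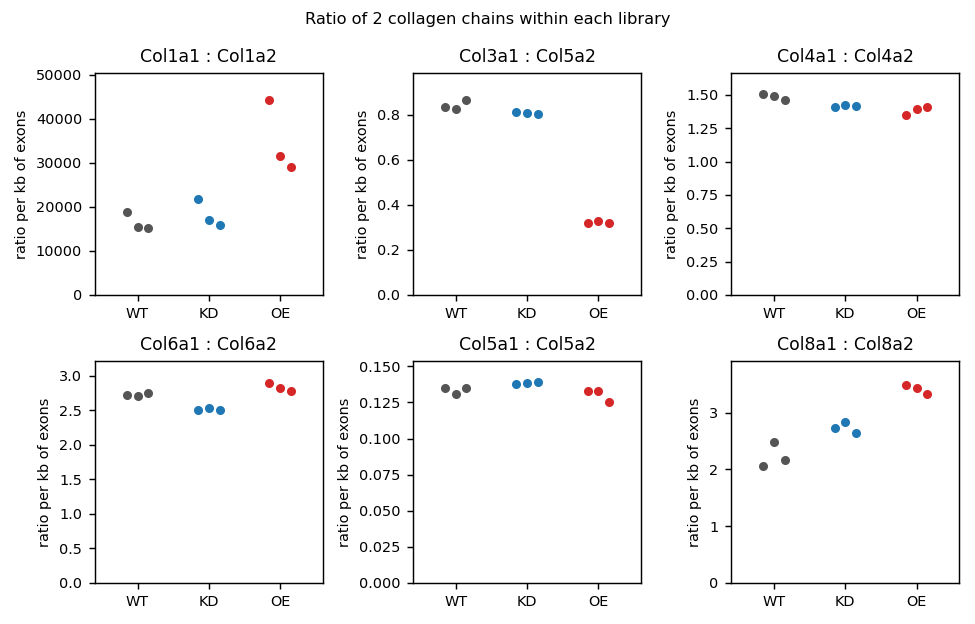
Ratio of 2 collagen chains per kb of exon within each library (1 point per library, axes from 0). The Col3a1 to Col5a2 ratio drops from near 0.843 in WT to 0.321 in OE, while Col4a1 to Col4a2 and Col5a1 to Col5a2 span 1.38 to 1.49 and 0.130 to 0.138 in their group means.

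Col18a1, the basement membrane collagen whose end is cut off as endostatin, was among the few chains higher in OE. Col18a1 (ENSMUSG00000001435, chr10:77052178-77166548) was at 27.6, 30.2 and 28.1 CPM in WT, 12.5, 13.3 and 11.7 in KD, and 46.0, 49.0 and 47.1 in OE. Every KD library was below every WT library and every OE library above. It fell 2.30-fold in KD (log2 -1.20 ± 0.07, edgeR adjusted p = 6.11e-11) and rose 1.65-fold in OE (0.73 ± 0.05, edgeR adjusted p = 1.04e-08). OE exceeded KD 3.80-fold (edgeR adjusted p = 4.13e-15). The gene overlaps Slc19a1 on the other strand, which had 11552 counts over all libraries, and whether the counting used strand is not given in the sources used here. Col15a1, the other multiplexin, had 18 to 38 counts in a library and passed in no comparison.

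The FACIT collagens, chains that sit on the surface of fibrils, had 5 tested members. Of these Col16a1 passed in KD and the others in no comparison of the analysis reported. In KD 21.3% of all tested genes passed, beside 1 of these 5 chains (20%). In OE 36.4% of all tested genes passed relative to WT and 41.5% relative to KD, beside 0 of the 5 FACIT chains. Col16a1 (ENSMUSG00000040690, chr4:130047840-130099283), their most abundant member per kb, was at 102, 105 and 94.2 CPM in WT, 89.0, 88.5 and 89.1 in KD, and 98.1, 100 and 83.6 in OE. KD was below WT, while OE spread over both. Its KD value of -0.17 ± 0.05 (edgeR adjusted p = 0.0416) was lost in many settings, among them leaving out any 1 WT replicate other than the third or any KD replicate (adjusted p = 0.108 to 0.123). Col16a1 lies in the same chromosome 4 window as Col8a2, with medians of -0.18 in KD and 0.35 in OE, and with window medians taken out it was at 0.00 in KD and -0.44 in OE (edgeR adjusted p = 0.983 and 9.32e-06). Col12a1 was at 112 CPM ± 14.0 in WT, 112 ± 5.52 in KD and 110 ± 5.28 in OE. It lies in a chromosome 9 window whose median in OE was -0.34 relative to WT and -0.46 relative to KD, and with window medians taken out it was at 0.32 and 0.44 and passed (edgeR adjusted p = 0.00476 and 0.000322). Col9a3, Col14a1 and Col20a1 had at most 40 counts in a library.

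At low levels, 3 chains remain. Col25a1 (ENSMUSG00000058897, chr3:130131501-130599877), a transmembrane collagen best known from neurons, was at 0, 0.101 and 0.0224 CPM in WT, 0.0795, 0.0502 and 0.0205 in KD, and 0.234, 0.363 and 0.533 in OE. OE lay above all other libraries (edgeR adjusted p = 0.00423 against WT), and only OE brought it through the filter. Col28a1 (ENSMUSG00000068794, chr6:7997808-8192617) was at 0.817, 0.571 and 1.1 CPM in WT, 0.656, 0.553 and 0.635 in KD, and 0.384, 0.202 and 0.422 in OE. OE was below WT (log2 -1.29 ± 0.39, edgeR adjusted p = 0.0117), a call lost without WT replicate 3 or without OE replicate 2 (adjusted p = 0.0749 and 0.0672). Col7a1, the anchoring fibril chain, was at 1.16 CPM ± 0.245, 1.59 ± 0.230 and 1.71 ± 0.144 in WT, KD and OE and passed in no comparison, although it did in OE with window medians taken out (0.61, edgeR adjusted p = 0.044).

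The prolyl 4-hydroxylase subunits went apart in OE. P4ha1 (ENSMUSG00000019916, chr10:59323296-59373304), the most abundant catalytic subunit, was at 226, 233 and 224 CPM in WT, 230, 225 and 236 in KD, and 248, 253 and 263 in OE. OE was highest, by 0.16 ± 0.03 on the log2 scale (edgeR adjusted p = 0.00293, 0.248 with library totals alone). P4ha2 was at 92.8 CPM ± 6.81 in WT, 94.6 ± 2.49 in KD and 148 ± 2.50 in OE and rose 1.59-fold in OE (edgeR adjusted p = 8.94e-10). P4ha3 (ENSMUSG00000051048, chr7:100285520-100319699) was at 21.5, 20.2 and 20.4 CPM in WT, 18.4, 19.4 and 20.5 in KD, and 10.5, 10.5 and 9.51 in OE. It went the other way, with OE below all other libraries and a fall of 2.03-fold (log2 -1.02 ± 0.06, edgeR adjusted p = 1.46e-09). In KD the 3 subunits were at 0.02 ± 0.03, 0.03 ± 0.06 and -0.09 ± 0.05, and did not pass.

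Of the lysyl hydroxylases, Plod2, which acts on the telopeptides, rose in both comparisons with WT (edgeR adjusted p = 7.26e-05 in KD and 5.63e-07 in OE). It was at 79.3 CPM ± 7.38 in WT, 101 ± 1.97 in KD and 110 ± 1.29 in OE. Plod3 (ENSMUSG00000004846, chr5:136987019-136996648), which also adds sugars, was at 173, 164 and 181 CPM in WT, 169, 176 and 173 in KD, and 130, 133 and 132 in OE. Only OE was apart, lower by 0.39 ± 0.04 in size (log2 -0.39, edgeR adjusted p = 3.24e-07), and KD lay within the WT range. Plod3 overlaps Znhit1 on the other strand (17666 counts over all libraries). Plod1, which acts on the helix, fell by 0.31 ± 0.04 in KD (edgeR adjusted p = 0.000121) and was at 0.02 ± 0.04 in OE. The window around Plod1 had a median of -0.16 in KD and 0.30 in OE, and with window medians taken out Plod1 was at -0.14 and -0.27 (edgeR adjusted p = 0.0578 and 0.000215).

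Lox was the lysyl oxidase with the highest level and moved in both comparisons. Lox (ENSMUSG00000024529, chr18:52516067-52529867) was at 569, 665 and 669 CPM in WT, 839, 885 and 861 in KD, and 443, 441 and 448 in OE. Groups did not overlap, with KD highest and OE lowest. It rose 1.36-fold in KD (log2 0.44 ± 0.08, edgeR adjusted p = 2.76e-06) and fell 1.43-fold in OE (-0.52 ± 0.08, edgeR adjusted p = 9.68e-08), and was lower by 0.96 ± 0.02 in OE than in KD. Loxl2, which cross-links type IV collagen, had the same order at 208 CPM ± 2.75 in WT, 231 ± 3.85 in KD and 173 ± 5.20 in OE (log2 0.15 ± 0.02 and -0.27 ± 0.03, edgeR adjusted p = 0.00893 and 1.4e-05).

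Loxl4 (ENSMUSG00000025185, chr19:42593982-42612813), another type IV cross-linker, was at 2.29, 3.50 and 3.13 CPM in WT, 0.934, 0.502 and 1.04 in KD, and 3.71, 3.31 and 3.60 in OE. KD lay below all other libraries and OE overlapped WT. It fell 3.56-fold in KD (log2 -1.83 ± 0.36, edgeR adjusted p = 8.41e-06), and OE against WT gave 0.24 ± 0.19 (edgeR adjusted p = 0.398). Loxl1 (ENSMUSG00000032334, chr9:58287738-58313186), known for its part in elastic fibres, was at 0.949, 1.58 and 2.53 CPM in WT, 1.21, 1.73 and 1.29 in KD, and 0.831, 0.485 and 0.911 in OE. OE was lowest, but the WT libraries were widely spread. Its OE value of -1.19 ± 0.48 (edgeR adjusted p = 0.00704) was -0.80 without WT replicate 3 and also -0.80 with window medians taken out, neither of which passed (adjusted p = 0.0585 and 0.0708). Loxl3 fell in both comparisons, from 38.7 CPM ± 1.39 in WT to 31.9 ± 0.376 in KD and 32.0 ± 3.59 in OE, (edgeR adjusted p = 0.00557 and 0.00367), and it overlaps Htra2 on the other strand.

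The processing genes and the chaperone fell in OE. Pcolce (ENSMUSG00000029718, chr5:137605103-137613784) was at 279, 269 and 302 CPM in WT, 293, 290 and 304 in KD, and 191, 186 and 189 in OE. OE was below all other libraries, by 0.59 ± 0.05 in size (log2 -0.59, edgeR adjusted p = 1.28e-09). Serpinh1 (ENSMUSG00000070436, chr7:99345376-99353239) was at 1471, 1396 and 1672 CPM in WT, 1510, 1573 and 1558 in KD, and 1255, 1275 and 1341 in OE. It was lower in OE without overlap but by less (log2 -0.23 ± 0.08, edgeR adjusted p = 0.00197). Bmp1 was at 88.3 CPM ± 1.54, 92.8 ± 3.56 and 71.0 ± 6.39 in WT, KD and OE (log2 -0.32 ± 0.08 in OE, edgeR adjusted p = 0.000132). In KD Pcolce, Serpinh1 and Bmp1 were at 0.06 ± 0.05, 0.03 ± 0.08 and 0.07 ± 0.04 and did not pass, although without WT replicate 3 Pcolce and Serpinh1 did, at 0.11 each (adjusted p = 0.0368 and 0.0195).

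Among other genes of collagen folding, export, processing and binding more fell than rose in OE. Of 52 such genes 42 were tested, and 31 passed in OE (22 lower, 9 higher, median -0.28) and 17 in KD (9 lower, 8 higher, median -0.03). Of all tested genes 36.4% passed in OE (19.5% lower and 17% higher) and 21.3% in KD (10.4% lower and 11% higher), which is also the background of the smaller lists that follow. In the endoplasmic reticulum 10 of 14 passed in OE, 8 lower and 2 higher. Crtap, part of the prolyl 3-hydroxylase complex, had the smallest p and went from 130 CPM in WT to 55.3 in OE (log2 -1.24 ± 0.05, edgeR adjusted p = 8.37e-14). In KD Rcn3, a calcium-binding protein there, fell by 0.41 ± 0.08 (edgeR adjusted p = 1.62e-05). P4hb, the subunit shared by the collagen prolyl 4-hydroxylases, was at 1485 CPM in WT and 1480 in OE, with 1745 in KD (log2 0.23 ± 0.03, edgeR adjusted p = 0.000114).

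The procollagen N-proteinases did not move together in OE. Adamts2, which removes the start of fibrillar procollagens, was at 9.91, 9.93 and 9.67 CPM in WT, 3.24, 1.96 and 3.42 in KD, and 24.6, 22.1 and 22 in OE. KD was lowest and OE highest without overlap (log2 -1.76 ± 0.25 and 1.22 ± 0.05, edgeR adjusted p = 2.64e-08 and 9.68e-08). Adamts14 also rose in OE (log2 1.09 ± 0.08, edgeR adjusted p = 8.92e-07), while Adamts3 fell there from 29.95 CPM in WT to 17.84 (log2 -0.75 ± 0.13, edgeR adjusted p = 6.16e-07). Of the 5 tested genes of the list of processing proteases and enhancers 3 were higher and 1 lower in OE, and 3 were lower in KD. Of 9 export genes, 3 rose and 2 fell in OE and 3 rose in KD, with Creb3l1, a transcription factor of secretory and collagen genes, at 0.25 ± 0.04 in KD and -0.34 ± 0.04 in OE (edgeR adjusted p = 0.000171 and 2.23e-06). Among proteins bound to fibrils 6 of 7 fell in OE, led by decorin (Dcn, log2 -1.42 ± 0.06, edgeR adjusted p = 1.76e-14), and biglycan (Bgn) rose by 0.32 ± 0.02 in KD (edgeR adjusted p = 1.94e-06). Among collagen receptors 5 of 7 fell in OE and 1, Ddr2, rose by 0.91 ± 0.07 (edgeR adjusted p = 1.67e-11). In KD only Itgb1 passed among them, at 0.15 ± 0.07 (edgeR adjusted p = 0.0291).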

How the data were processed

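Poly-A selected RNA from 9 MCEC libraries (3 each of WT, KD and OE) was sequenced in read pairs, per the labels' protocols. The authors deposited raw counts per Ensembl gene and library, as judged from the whole-number values. GRCm38 and mm10 are named in the submitters' processing notes, while aligner, counter, strand setting and annotation release are not given in the sources used here. The table has 55774 rows. Because 168 genes stand on 455 rows with equal counts, each was counted once (55487 genes). There were 0 columns that matched no sample. Positions and exon lengths came from GENCODE on GRCm38 (55227 genes matched, and 58 of 58 members). Of the members, 34 overlap another gene, 19 of these on the same strand.

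Counts were filtered (filterByExpr, 16955 genes), scaled by TMM and fitted over all 9 libraries with edgeR 4.0.16 (quasi-likelihood, robust) in R 4.3.3, with group as the only term, and a Benjamini-Hochberg adjusted p under 0.05 over all genes tested was the threshold. A standard error combines the SDs of both groups on the log2 CPM scale (prior count of 2). Ratios, shares and promoter motifs were computed in Python 3.11.15. An exact permutation test of 3 against 3 cannot go below p = 0.1, so none was used. Alternatives used limma 3.58.1, DESeq2 1.42.0, other scalings, filters and designs, left-out libraries, and offsets that remove the median change of each 20 Mb window with at least 10 tested genes. The fit was tested on simulated data with known changes set in OE. From 3 CPM upward it recovered 98.5% of 2-fold changes and 83.1% of changes of 0.5 on the log2 scale. Under 3 CPM it recovered 36.4% and 2.86%. Of its 141 calls 5.67% were false. The members, the lists and the markers were chosen with earlier results of these data known. Values in every library are given for members with a group mean of at least 1 CPM and a called change of at least 2-fold, and for the highest member per kb of each role.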

Additional observations from a re-analysis of the deposited data

How the results depend on the processing

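The number of collagen members called stayed within 1.5 times that of the analysis reported (15 members for KD and 32 for OE, each against WT, and 32 for OE against KD) under DESeq2, limma-voom, DESeq2 or upper-quartile size factors, other filters, fits of only the groups compared, and removal of window medians. It moved under 2 settings. Library totals alone gave 9 in KD against WT (14.6% of all genes passed), and requiring a change beyond 1.5-fold in the test itself gave 2, 11 and 15 (1.62%, 4.68% and 7.85% of all genes passed). Leaving out 1 library gave 11 to 18, 30 to 34 and 29 to 33 calls. Removing window medians reversed Col3a1 in KD against WT to -0.12 and Col16a1 in OE against KD to -0.43; the cause was not tested. Over 60 results of single members, 1193 alternative values were computed: 1131 kept direction and call, 49 lost the call, 11 gained it and 2 reversed. Replicate numbers are shared between groups, but none of 9 same-numbered pairs deviated together (correlations -0.042 to 0.049), so the numbers were not taken as pairs; with the replicate block the counts were 15, 32 and 32, and the members called were the same. Members under 1 CPM rest on few counts, and a call missed there does not show that levels were alike.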
